A study of Mus musculus with 6 samples.

Results

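A set of 10 genes that govern the passage of a cell through the G1 restriction point was followed in cell lines from mouse liver tumors. They are the RB family (*Rb1*, *Rbl1* and *Rbl2*), the D-type cyclins (*Ccnd1*, *Ccnd2* and *Ccnd3*), the kinases that the D-type cyclins activate (*Cdk4* and *Cdk6*) and the E-type cyclins (*Ccne1* and *Ccne2*). The genes were picked by symbol, and all 10 had a row of their own among the 20856 genes with values in the deposited table. All 10 passed the filter on low values, which kept the 11617 genes that reached an RPKM of 1 in 3 or more of the 6 libraries. RPKM is the number of reads on a gene, scaled to the length of its transcript in kilobases and to the depth of the library.

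RNA was sequenced from 6 lines, each grown out of a tumor raised in the liver of C57BL/6 mice by hydrodynamic injection of a *Myc* transposon with a px330 plasmid, which carries Cas9 and a guide RNA. The guide targeted *Trp53* in 3 lines (Myc;sgp53/Cas9, here sg*Trp53*) and *Kmt2c*, the gene of the histone methyltransferase MLL3, in the other 3 (Myc;sgMll3/Cas9, here sg*Kmt2c*). Enforced *Myc* is thus shared by all lines, no line has both targeted genes intact, and a difference between the genotypes cannot be assigned to either gene. The lines are untreated, were passaged on collagen until no fibroblasts were seen, and are not isogenic. Per the methods each came from a different mouse, although the labels name sg*Kmt2c* replicates 2 and 3 as 2A and 2T1.

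In the textbook account, the RB family proteins hold back E2F transcription factors. Mitogens induce D-type cyclins, which activate CDK4 and CDK6. These phosphorylate the RB proteins, E2F is released, and its targets include *Ccne1* and *Ccne2*, whose products activate CDK2 and bring the cell into S phase. INK4 inhibitors such as the p16 product of *Cdkn2a* act on CDK4 and CDK6, and p21 (*Cdkn1a*), a p53 target, acts mainly on CDK2. MYC promotes the same step, and *Cdk4* is among its known target genes.

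The reads on listed genes were 5312182 to 6878625 in the sg*Trp53* libraries and 3680068 to 4704539 in the sg*Kmt2c* libraries. All libraries ran in the same 2 lanes of 1 flow cell. *Trp53* RNA was lower in every line whose guide targeted it, at 17.2, 17.6 and 19.4 RPKM against 92.2, 124 and 121. *Kmt2c* RNA overlapped between the genotypes, with 24.2, 18.4 and 19.2 RPKM where *Trp53* was targeted and 19.7, 24.97 and 9.51 where *Kmt2c* was. The library of sg*Kmt2c* replicate 1 stood apart. Its median correlation with the other libraries was 0.818, against 0.887 to 0.929 for the other 5, so the fold changes, list medians and likenesses that it moves are given with and without it. Marker sums are on the scale of RPKM but with the length of all annotated exons of each gene (GENCODE M1). The reason is that the listed length is short for some markers (431 bases for *Hnf4a*, against 5019 of exon). For *Fgb* it is instead long (3810 bases, against 1644 of exon). The exon length thus raises *Fgb*, from 32.5 RPKM as deposited to 75.4 in sg*Kmt2c* replicate 3. Albumin (*Alb*), the defining hepatocyte product, reached at most 4.36 RPKM in any line. The 6 hepatocyte markers summed to 11.6 to 20.2 in sg*Trp53* and 1.46 to 171 in sg*Kmt2c*. The highest sum was in sg*Kmt2c* replicate 1, where *Hnf4a* gave 102 and *Fgb* 46.6. In sg*Kmt2c* replicate 3 the sum was 92.2, of which *Fgb* gave 75.4. Sums of 4 endothelial markers stayed at or under 0.253 and of 6 immune markers at or under 15.1. Of the immune markers *Cd3e* was listed at 0, and *Cd68* lay between 1.67 and 7.44. *Csf1r* gave 7.40, 1.26 and 6.16 in sg*Trp53* against 0.690, 0 and 0.716 in sg*Kmt2c*. Its genotypes did not overlap, but it was not called (limma, adjusted p = 0.440).

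RefSeq promoter sequences (GRCm38.p6, the build of the files) were at hand for 6 of the 10 genes, *Rbl1*, *Rbl2*, *Ccnd3* (with 2 starts), *Cdk4*, *Cdk6* and *Ccne1*. The 250 bases before each start were searched on both strands for the E-box CACGTG, the site of MYC with its partner MAX, and for the E2F motifs TTTCCCGC, TTTGGCGC, TTTCGCGC and TTTGCCGC. The promoters that held most E-boxes and the only E2F motif are shown, upstream of the start and 5′ to 3′ along the gene, with the matches in capitals. The E-boxes and E2F motifs do not overlap.
*Cdk4*, chr10:127063285-127063534, plus strand: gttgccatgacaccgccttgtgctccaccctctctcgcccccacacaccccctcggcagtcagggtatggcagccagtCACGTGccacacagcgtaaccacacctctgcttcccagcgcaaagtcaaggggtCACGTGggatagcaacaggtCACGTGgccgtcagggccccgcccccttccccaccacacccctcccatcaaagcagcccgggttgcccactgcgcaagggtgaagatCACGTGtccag
*Rbl1*, chr2:157204535-157204784, minus strand: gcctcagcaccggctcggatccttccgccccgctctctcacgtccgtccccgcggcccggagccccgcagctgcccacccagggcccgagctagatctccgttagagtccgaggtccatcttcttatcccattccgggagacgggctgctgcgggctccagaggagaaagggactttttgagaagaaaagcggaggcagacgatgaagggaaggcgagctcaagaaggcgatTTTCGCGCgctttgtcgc
The *Cdk4* promoter held 4 copies of CACGTG, with first bases 172, 118, 98 and 11 bases before the start. At least 1 copy was present in 6.02% of 32851 promoters of the same length, and 4 or more in 0.0213% (7 promoters). The *Cdk6* promoter held 1 copy, 220 bases before the start. The *Rbl1* promoter held TTTCGCGC 18 bases before the start, a motif found in 0.256% of all promoters, while 1.86% held any of the 4 E2F motifs. These matches are letters in a window and do not show that a factor was bound.

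None of the 10 genes passed the test for a difference between the genotypes. By limma, with Benjamini-Hochberg adjustment over all genes tested, 0 of 10 had an adjusted p-value under 0.05, against 0.129% of all genes. At an unadjusted p-value under 0.05 there were also 0 of 10, against 8.58% of all genes. In all 10 the lines of the genotypes overlapped, while in 16.2% of all genes they did not. The log2 fold change, sg*Kmt2c* minus sg*Trp53* on the scale of log2(RPKM + 1), was above 0 for 4 genes and below 0 for 6. Of all 11617 genes tested, 6739 were below 0. The median log2 fold change of the 10 genes was -0.10, beside -0.09 over all genes tested. The spread between lines of 1 genotype was wide for some of these genes. The highest line exceeded the lowest by over 10 times for *Ccnd2*, *Ccne1* and *Ccne2*, which was so for 14.3% of all genes tested. The lack of a call thus does not show equal expression, and the intervals given below state what sizes of difference remained possible.

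**Figure D1:**
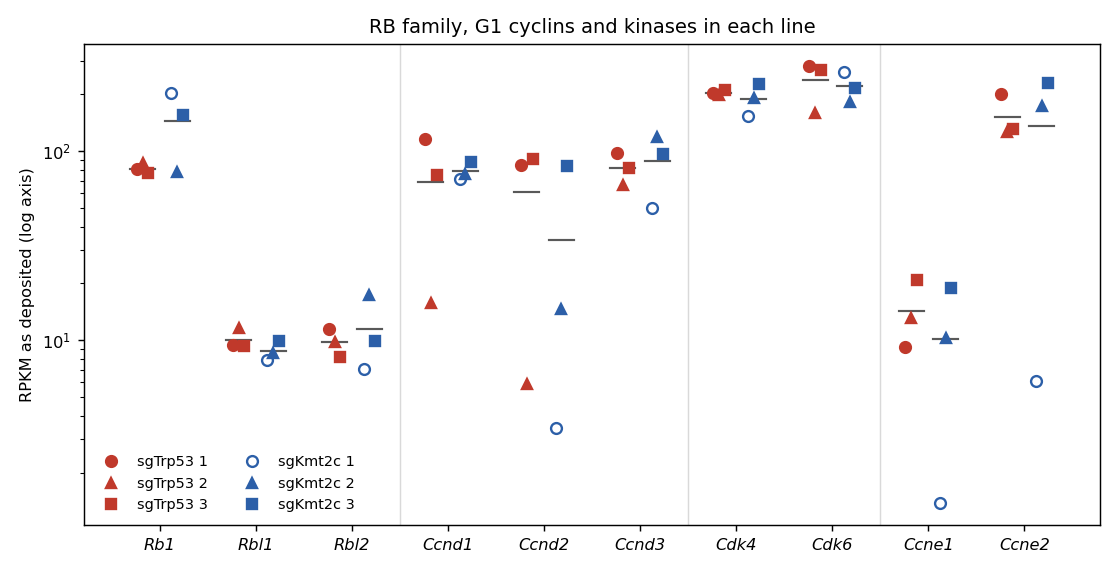
RPKM as deposited (log axis) of the 10 genes in each line, sg*Trp53* in red and sg*Kmt2c* in blue, with the mean of each genotype as a bar (n = 3 lines). The genotypes overlap in every gene, and the lowest points of *Ccnd2*, *Ccne1* and *Ccne2* belong to sg*Kmt2c* replicate 1 (open circles), that of *Ccnd1* to sg*Trp53* replicate 2. Heights of different genes should not be compared here, because the listed length is short for 4 of them.

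In the RB family, *Rb1*, the gene of the retinoblastoma protein, had the smallest adjusted p-value of the 10 genes. *Rb1* (ENSMUSG00000022105, chromosome 14 from 73183673 to 73325822) lay at 80.2, 86.4 and 76.6 RPKM in sg*Trp53* replicates 1, 2 and 3. In sg*Kmt2c* replicates 1, 2 and 3 it lay at 203, 77.9 and 155 RPKM. Replicates 1 and 3 of sg*Kmt2c* were above every sg*Trp53* line, while replicate 2 lay among them. On the log2 scale the difference was 0.73 (standard error, SE, 0.352, 95% interval -0.11 to 1.57, limma, adjusted p = 0.616). The exact two-sided permutation test gave p = 0.3, where 3 lines against 3 cannot give less than 0.1, and for the other 9 genes it gave 0.3 to 1. Without sg*Kmt2c* replicate 1 the log2 fold change was 0.44, and without replicate 2, when the genotypes did not overlap, it was 1.12 (limma, unadjusted p = 0.00235, adjusted p = 0.313).

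Of the other pocket protein genes, *Rbl1* was more even between lines, with the highest line at 1.48 times the lowest. For *Rbl2* this was 2.48 times, near the 2.65 times of *Rb1*. *Rbl1* (p107) had 9.41, 11.6 and 9.31 RPKM in sg*Trp53* against 7.86, 8.59 and 9.96 in sg*Kmt2c*. Its interval, -0.70 to 0.34 around a log2 fold change of -0.18, was among the narrowest of the 10 (limma, adjusted p = 0.805), and the value was -0.11 without sg*Kmt2c* replicate 1. *Rbl2* (p130), which is known for its role in resting cells, had 11.4, 9.77 and 8.13 RPKM in sg*Trp53* against 7.02, 17.4 and 9.93 in sg*Kmt2c*. Its highest and lowest lines were thus both sg*Kmt2c* lines, and the log2 fold change of 0.13 (SE 0.346, limma, adjusted p = 0.913) was -0.19 without sg*Kmt2c* replicate 2 and 0.41 without replicate 1.

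The D-type cyclins varied far more between lines than between genotypes. *Ccnd1* (chromosome 7 from 144929931 to 144939869), the cyclin D1 gene, had 116, 15.7 and 74.6 RPKM in sg*Trp53* replicates 1 to 3. The sg*Kmt2c* lines lay close together at 71.6, 75.9 and 87.8 RPKM. A single line, sg*Trp53* replicate 2, set the sign of the comparison. The log2 fold change was 0.58 with all lines (SE 0.681, 95% interval -1.05 to 2.21, limma, adjusted p = 0.80) and -0.25 without it.

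*Ccnd2* (chromosome 6 from 127125779 to 127151048) was split in both genotypes. It had 85.1 and 91.4 RPKM in sg*Trp53* replicates 1 and 3 and 5.87 in replicate 2. In sg*Kmt2c* it had 84.0 RPKM in replicate 3, 14.7 in replicate 2 and 3.42 in replicate 1. So 3 lines expressed it at about the same level, 3 were low, and each genotype had lines of both kinds. The highest line was 26.7 times the lowest. The log2 fold change of -1.07 had an SE of 1.36 and an interval from -4.33 to 2.19 (limma, adjusted p = 0.811), and it was -0.05 without sg*Kmt2c* replicate 1 and -2.30 without sg*Trp53* replicate 2. *Ccnd3* had 97.5, 66.7 and 81.9 RPKM in sg*Trp53* and 49.9, 119 and 96.6 in sg*Kmt2c*, a log2 fold change of 0.04 (SE 0.348, limma, adjusted p = 0.976) that was 0.40 without sg*Kmt2c* replicate 1 and -0.22 without replicate 2.

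The low cyclin D lines also differed in markers of cell identity. The 6 fetal liver and epithelial markers (*Afp*, *Krt8*, *Krt18*, *Krt19*, *Epcam* and *Cdh1*) summed to 57.2 in sg*Trp53* replicate 2 on the exon lengths, against 959.5 and 690.1 in replicates 1 and 3. That line had the highest fibroblast marker sum, 379 over 8 genes, of which *Col3a1* gave 306. *Col1a2*, *Pdgfra* and *Pdgfrb* were highest there too. *Col1a1*, *Dcn* and *Acta2* were highest in sg*Trp53* replicate 3 instead, at 35.4, 7.94 and 124 against 20.9, 0.873 and 10.2. In sg*Kmt2c* replicate 1 the same sums were 5544 for epithelial and 0.219 for fibroblast markers, where *Col1a2*, *Pdgfra*, *Pdgfrb*, *Dcn*, *Lum* and *Acta2* were listed at 0. Over all lines the epithelial sum ranged from 57.2 to 959.5 in sg*Trp53* and from 237 to 5544 in sg*Kmt2c*, and the fibroblast sum from 13.6 to 379 and from 0.219 to 75.3. *Ccnd2* was low in the lines with the lowest and the highest epithelial sum. It was also low in sg*Kmt2c* replicate 2 (14.7 RPKM), where the epithelial sum was 237 and the fibroblast sum 75.3. The part of cell identity in the cyclin values was not tested, and in RNA of whole cultures fewer cells of a type and less RNA per cell cannot be told apart.

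*Cdk4* (chromosome 10 from 127063534 to 127067920), whose promoter is printed above, had the narrowest interval of the 10 genes. Its values were 203, 198 and 211 RPKM in sg*Trp53* and 154, 190.3 and 226 RPKM in sg*Kmt2c*. Each library held at least 1440 of its reads. The log2 fold change was -0.12 (SE 0.196, 95% interval -0.59 to 0.35, limma, adjusted p = 0.853), and 0.023 without sg*Kmt2c* replicate 1, the lowest line. *Cdk6*, the alternative partner of the D-type cyclins, had 283, 160 and 269 RPKM in sg*Trp53* and 264, 182 and 217 in sg*Kmt2c*, with a log2 fold change of -0.07 (95% interval -0.74 to 0.60, limma, adjusted p = 0.942), which was -0.21 without sg*Kmt2c* replicate 1. Its lowest line was again sg*Trp53* replicate 2.

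The E-type cyclins were both low in a single line. *Ccne1* (chromosome 7 from 38097984 to 38107534) had 9.18, 13.1 and 20.9 RPKM in sg*Trp53* and 1.38, 10.3 and 18.8 in sg*Kmt2c*. *Ccne2* (chromosome 4 from 11191351 to 11204779) had 200.1, 126 and 131 RPKM in sg*Trp53* and 6.09, 173 and 230.0 in sg*Kmt2c*. The low values are both from sg*Kmt2c* replicate 1, and without that line each genotype overlapped the other at similar levels. The values rest on 13 reads of *Ccne1* and 12 of *Ccne2*. Their exact 95% Poisson intervals, which cover counting error only, were 0.734 to 2.36 RPKM and 3.15 to 10.6 RPKM, so even the upper bounds lay under the lowest of the other 5 lines (9.18 and 126 RPKM). Relative to the median of those 5 lines, *Ccne1* was at 0.106 and *Ccne2* at 0.0353 in this line.

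In the genotype comparison *Ccne1* had a log2 fold change of -0.85 (95% interval -2.71 to 1.00, adjusted p = 0.753) and *Ccne2* one of -1.19 (95% interval -4.22 to 1.84, adjusted p = 0.780, both from limma). Without sg*Kmt2c* replicate 1 the values were 0.03 and 0.42. Across the 6 libraries the pair had a Pearson correlation of 0.90, which was -0.18 over the other 5, so that the likeness of the pair rests on 1 line.

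**Figure D2:**
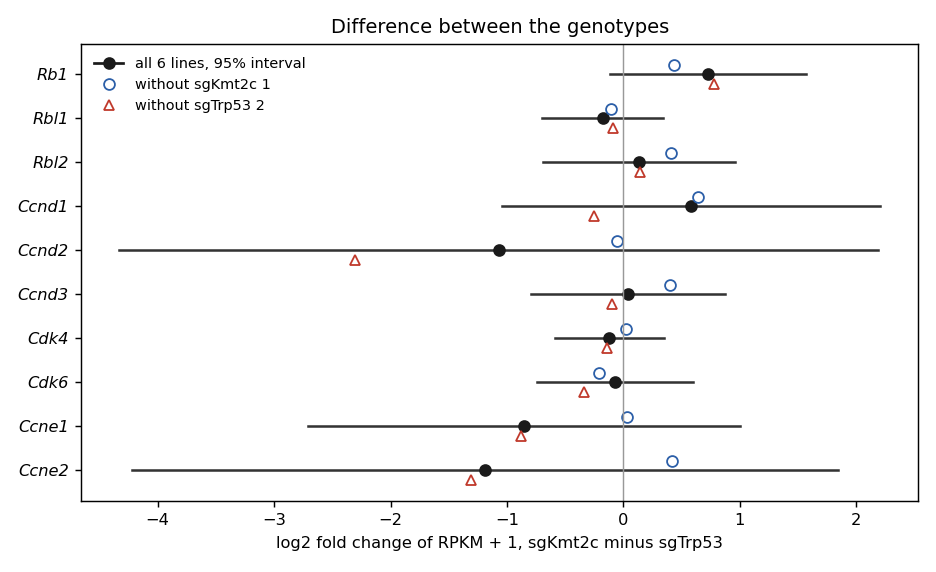
Log2 fold change of RPKM + 1 (sg*Kmt2c* minus sg*Trp53*) of each gene with its 95% interval over all 6 lines, beside the value without sg*Kmt2c* replicate 1 (open circles) and without sg*Trp53* replicate 2 (open triangles). Every interval crosses 0, and *Ccne1* and *Ccne2* move from -0.85 and -1.19 to 0.03 and 0.42 without sg*Kmt2c* replicate 1.

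Among all members, 7 of 10 had their lowest value in sg*Kmt2c* replicate 1, as did 35.4% of all genes tested, and 3 of 10 (*Ccnd2*, *Ccne1* and *Ccne2*) were under 0.5 times the median of the other lines there, as were 18.6% of all genes. *Rb1* and *Cdk6* were above that median in the same line, at 2.53 and 1.21 times. Without sg*Kmt2c* replicate 1 the median log2 fold change of the 10 genes was 0.22, beside -0.04 for all genes. In sg*Trp53* replicate 2, 2 of 10 (*Ccnd1* and *Ccnd2*) were under 0.5 times the median of the other lines, as were 9.33% of all genes.

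To compare levels between genes, reads were divided by the length of all annotated exons of each gene (GENCODE M1), because the length that the table lists is 411 bases for *Rb1*, 425 for *Cdk6*, 418 for *Ccne2* and 952 for *Ccnd3*, against 4656, 3735, 3006 and 2113 bases of the longest coding transcript. Within a gene the length does not bear on the ratio between lines. By the median over the 6 lines in reads per kilobase of exon and depth of the library, on the scale of RPKM, the order was *Cdk4* (127), *Ccnd1* (73.4), *Ccnd2* (49.4), *Ccnd3* (37.7), *Cdk6* (27.4), *Ccne2* (18.1), *Ccne1* (8.78), *Rbl1* (7.59), *Rbl2* (6.97) and *Rb1* (5.69). The ranges of all neighbours in this order overlapped. *Cdk4* was nevertheless above *Ccnd1* in 6 of 6 lines, and *Ccnd2* was above *Ccnd3* in 3 of 6. On the listed lengths *Cdk6* would stand first and *Rb1* near the middle.

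The make-up of the families differed by line. *Cdk4* made up 76.4% to 87.3% of the summed level of both kinases, on the exon lengths, with both genotypes in that range. *Ccnd1* was the most abundant D-type cyclin in 4 of 6 lines. It held 74.0%, 53.2% and 40.7% of their sum in sg*Kmt2c* replicates 1, 2 and 3 and 47.3% in sg*Trp53* replicate 1, and in sg*Kmt2c* replicate 3 it was nearly level with *Ccnd2* (39.9%). In sg*Trp53* replicate 2 the first was *Ccnd3*, with 57.1%, and the sum of the D-type cyclins was 49.4 there, against 94.3 to 240 in the other lines. *Ccnd2* led in sg*Trp53* replicate 3 with 46.0%. *Rb1* held 25.9%, 26.6% and 28.2% of the RB family in sg*Trp53* and 55.0%, 21.6% and 41.2% in sg*Kmt2c*, while the family sum stayed between 18.5 and 25.7 in all lines. The sum of the E-type cyclins was 24.9 to 41.7 in 5 lines and 1.77 in sg*Kmt2c* replicate 1.

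**Figure D3:**
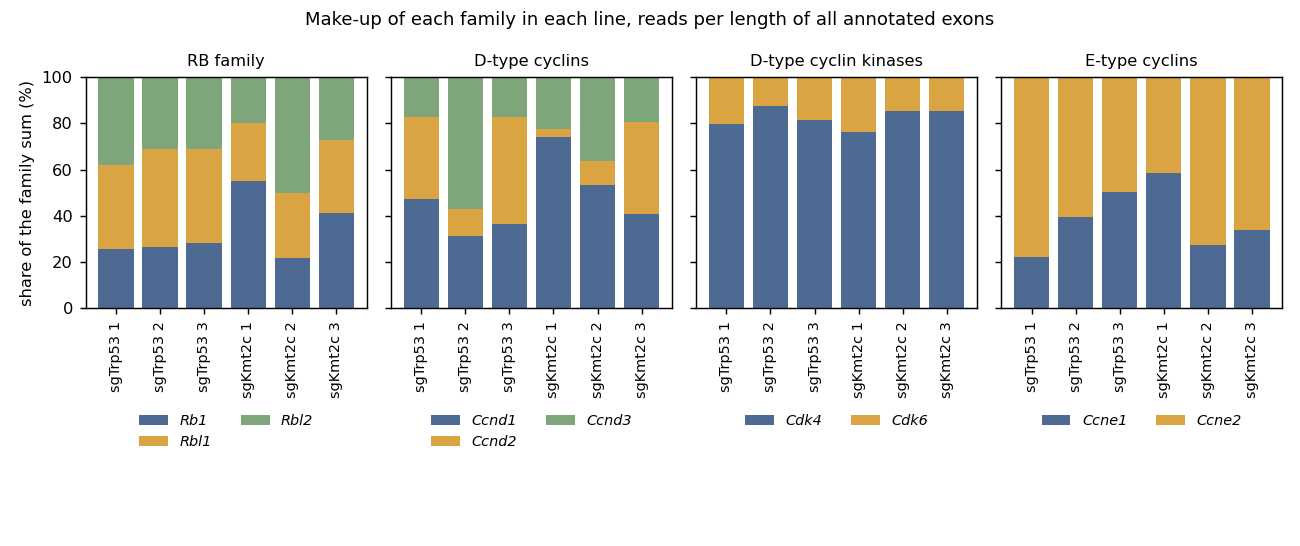
Share of each gene (%) in the summed level of its family, by line, on the length of all annotated exons. *Cdk4* is the larger part of the kinases in every line (76.4% to 87.3%), whereas the leading D-type cyclin changes from line to line.

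The other genes of the pathway were taken as 7 lists. The CDK inhibitors hold the only gene called in them. *Cdkn2a*, the gene of p16 and p19Arf, fell from 405, 451 and 424 RPKM to 21.2, 49.3 and 51.3, a log2 fold change of -3.46 (SE 0.349, limma, adjusted p = 0.0359). It was no longer called when any single line other than sg*Kmt2c* replicate 1 was left out. In each of those fits 0 of all genes tested were called, so the loss is not particular to *Cdkn2a*. *Cdkn1a* had 17.3, 7.54 and 36.1 RPKM in sg*Trp53* against 295, 217 and 261 in sg*Kmt2c* and did not pass (log2 fold change 3.84, limma, adjusted p = 0.0680). These are the inhibitors just upstream of the 10 genes, and both had been seen to differ in these data before the list was written. In all, 6 of the 7 inhibitors could be tested, 2 with a log2 fold change above 0 and 4 below. Without sg*Kmt2c* replicate 1 their median moved from -0.30 to 0.21, with 2 of 6 below 0, and *Cdkn2a* was still called (limma, adjusted p = 0.0073).

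The E2F and DP factors, which pair to bind the targets of the RB pathway, had 0 of 10 called, with a median log2 fold change of -0.30 that was -0.16 without sg*Kmt2c* replicate 1. *Tfdp2* had a log2 fold change of -0.88 (limma, adjusted p = 0.552). *E2f7*, a repressor that is itself an E2F target, had 82.0, 94.8 and 99.4 RPKM in sg*Trp53* and 10.7, 50.2 and 94.5 in sg*Kmt2c*. CDK2, cyclin A and the CDK-activating enzymes likewise had 0 of 6 called, with a median of -0.22 that was -0.10 without that line. *Ccna2* (cyclin A2) had 179, 183 and 196 RPKM in sg*Trp53* and 55.4, 90.6 and 190.1 in sg*Kmt2c*, and *Cdk7*, of the CDK-activating kinase, had a log2 fold change of -0.22 (limma, adjusted p = 0.770).

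The MuvB core joins the pocket proteins p107 and p130 in the DREAM complex. Its genes and *Mybl2*, the gene of B-Myb, had 0 of 6 called. Their median log2 fold change was -0.48, with all 6 values below 0, as were 6739 of all 11617 genes tested. Without sg*Kmt2c* replicate 1 the median was -0.36, again with 6 of 6 below 0, as were 6320 of all genes tested. The genotypes did not overlap for 3 of them, all lower in sg*Kmt2c*, as were 10.4% of all genes tested. *Rbbp4* had 75.7, 95.5 and 75.1 RPKM in sg*Trp53* and 25.8, 54.4 and 68.9 in sg*Kmt2c* (limma, adjusted p = 0.597). *Mybl2* had 27.4, 25.3 and 31.3 RPKM against 4.82, 13.2 and 30.4.

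Of the 7 genes of cyclin and inhibitor turnover, 0 were called and 3 reached an unadjusted p-value under 0.05, all with a log2 fold change below 0, which was so for 5.34% of all genes tested. These 3 also did not overlap between the genotypes, beside the 10.4% of all genes that were lower in this way. The median log2 fold change of the list was -0.22, and -0.25 without sg*Kmt2c* replicate 1, when 3 again reached that p-value. *Cks1b* and *Skp2*, both parts of the ubiquitin ligase that removes p27, had log2 fold changes of -0.86 (adjusted p = 0.422) and -1.08 (adjusted p = 0.528). *Fbxw7*, the ubiquitin ligase subunit that marks cyclin E for degradation, was the third, at 7.44, 10.5 and 8.05 RPKM in sg*Trp53* and 6.07, 4.79 and 4.92 in sg*Kmt2c* (log2 fold change -0.62, adjusted p = 0.567, all from limma).

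The 16 E2F target genes of S phase, such as the MCM helicase subunits and the enzymes of nucleotide synthesis, showed the line pattern of the E-type cyclins. None was called, and 0 reached an unadjusted p-value under 0.05 (limma). Their median log2 fold change was -0.49, with 15 of 16 below 0, as were 6739 of all 11617 genes tested. In sg*Kmt2c* replicate 1, 15 of the 16 had their lowest value and 14 were under 0.5 times the median of the other lines (all genes tested 35.4% and 18.6%), with a median ratio of 0.241. *Rrm2*, at 84.9 RPKM in that line, was the only one that was not lowest there. *Tyms*, thymidylate synthase, had 23.05 RPKM in it against 90.4 to 118 in the other 5. Without that line the median log2 fold change was 0.11 and 6 of 16 were below 0, as were 6320 of all genes tested. *Rbl1*, whose promoter holds the E2F motif shown above, was at 0.835 times the median of the other lines in sg*Kmt2c* replicate 1.

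The 8 proliferation markers of G2 and mitosis were also low in that line, but less so, with a median ratio of 0.494 and 6 of 8 at their lowest there. Their median log2 fold change was -0.50, and -0.09 without sg*Kmt2c* replicate 1. The difference between these lists was not tested. *Ccnb2* (cyclin B2) had 82.0, 96.7 and 72.8 RPKM in sg*Trp53* and 46.0, 50.3 and 45.1 in sg*Kmt2c*, and it did not pass the test (log2 fold change -0.81, SE 0.182, limma, adjusted p = 0.328), with -0.79 without that line. *Aurka* had a log2 fold change of -0.55 (limma, adjusted p = 0.630).

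**Figure D4:**
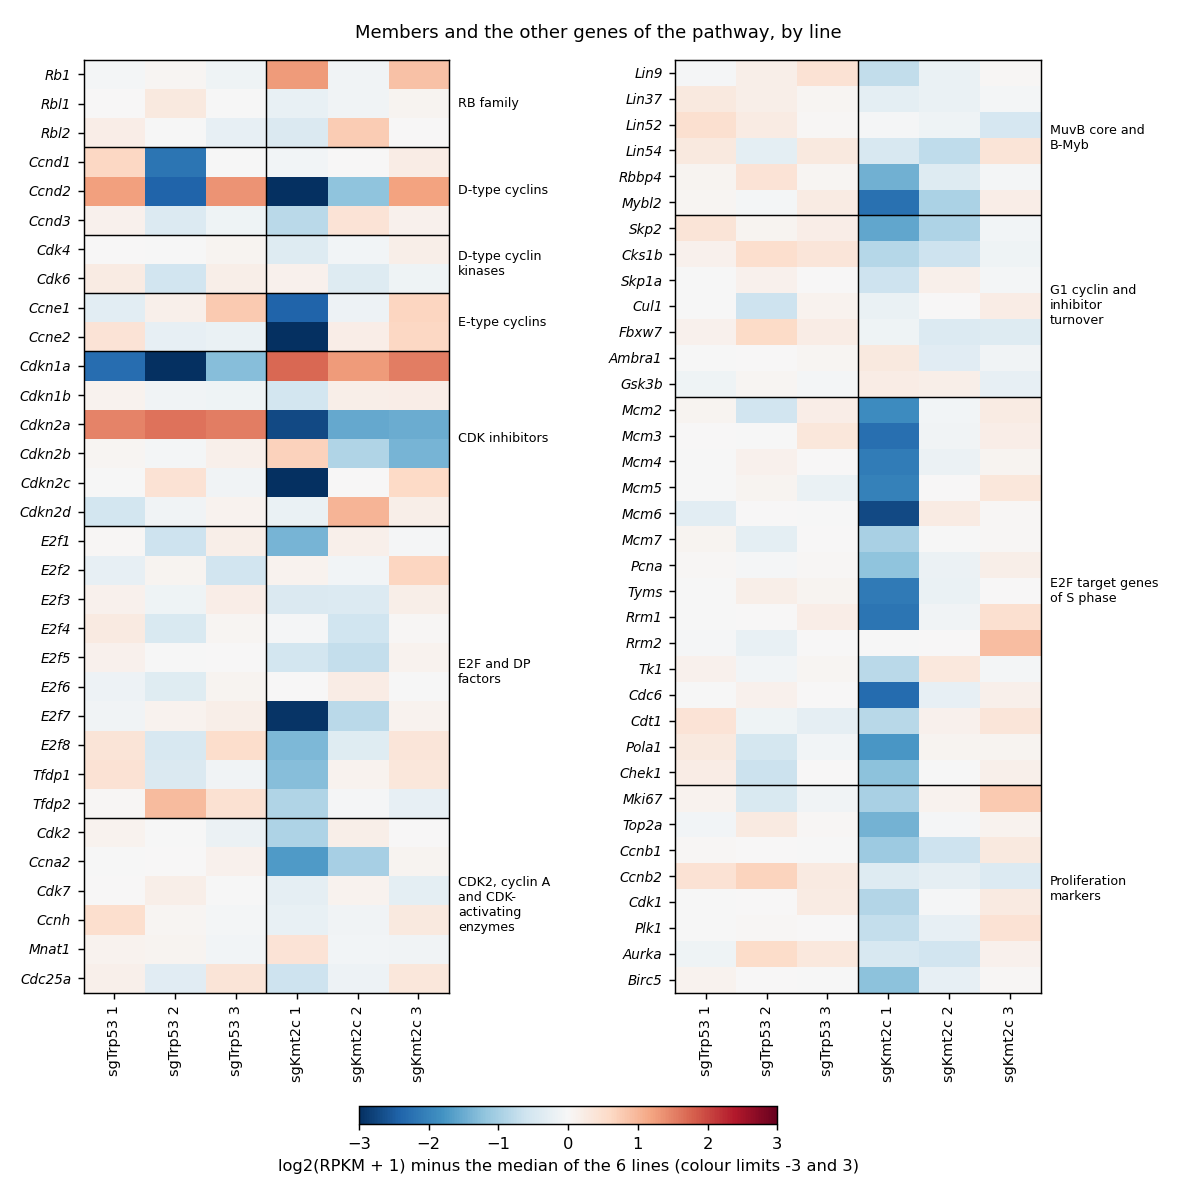
Tested genes of the pathway in each line, as log2(RPKM + 1) minus the median of the 6 lines, where red is above the median and blue below, with colours limited at -3 and 3. Most of the E2F target genes and both E-type cyclins are lowest in sg*Kmt2c* replicate 1, *Ccnd2* is low in 3 lines, and *Cdkn2a* and *Cdkn1a* separate the genotypes.

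The nearest tested genes on the chromosome were read in the same lines. Beside *Ccne1*, *Uri1* had 31.8 RPKM in sg*Kmt2c* replicate 1 and 18.2 to 33.4 in the other lines, and *1600014C10Rik* had 8.45 RPKM there, its highest value. Beside *Ccnd1*, *Oraov1* had 4.47 RPKM in sg*Trp53* replicate 2 and 4.49 to 6.08 in the other lines. *Ints8*, whose listed span overlaps that of *Ccne2* by 5622 bases, had 9.40 RPKM in sg*Kmt2c* replicate 1 and 18.8 to 25.5 in the others. On its other side *Trp53inp1*, a p53 target, had 7.68, 13.1 and 7.87 RPKM in sg*Trp53* and 76.0, 45.6 and 75.6 in sg*Kmt2c*. *Rcbtb2*, which overlaps *Rb1* by 24171 bases, was at 0.0601 RPKM in sg*Kmt2c* replicate 1, where *Rb1* was highest, and at 5.70 to 17.9 RPKM in the others. The library kit does not mark strand and the counting mode is not given in the sources used here, so reads where these genes overlap cannot be assigned. *Cdk4* and *Tspan31* (604 bases), *Rbl2* and *Aktip* (11804 bases), *Ccnd1* and *Oraov1* (818 bases) and *Ccnd3* and *Bysl* (361 bases) overlap in the same way.

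The genes most like each member over the 6 libraries were found by the Pearson correlation of log2(RPKM + 1), given as a description. *Ccne1* was most like *Terf1* (0.996), *Cdk1* (0.993) and *Cdca4* (0.992), and *Ccne2* most like *Kntc1*, *Cnpy3* and *Nudcd3* (each 0.998). Over the 5 lines other than sg*Kmt2c* replicate 1 these correlations were 0.973, 0.963 and 0.959 for *Ccne1* and 0.965, 0.925 and 0.961 for *Ccne2*. For *Ccnd2* the first was *Foxm1* (0.987), a transcription factor of the G2 program, at 111, 61.8 and 116 RPKM in sg*Trp53* and 50.9, 81.4 and 107 in sg*Kmt2c*. For *Cdk6* it was *Iars* (0.995) and for *Rb1* it was *Brms1* (0.987). Each value rests on 6 points and was picked as among the highest over all genes tested. A correlation over 0.95 was found with 320 genes for *Ccne2*, 2.75% of those tested, and with 24 for *Rb1*, 0.207% of those tested.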

How the data were processed

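RNA-seq values of 6 lines were analysed, and groups came from the labels. The authors trimmed reads with Trimmomatic, aligned them to GRCm38 with STAR, counted per gene with HTSeq and deposited RPKM, on 1 listed transcript length per gene. The table has 21065 rows, 209 of them without values, and 6 further sample columns that were not used. The authors' DESeq2 comparison (fold changes, p-values) was not used. RPKM times length gave whole reads for 100% of the values (tolerance 0.01 read). Log2(RPKM + 1) was fitted by genotype alone with limma 3.58.1 (R 4.3.3, lmFit and eBayes with trend), and p-values were adjusted by Benjamini-Hochberg. The fit was also run on simulated counts with planted changes and the same scatter for all genes. Those counts do not mimic the wide spread between these lines, so that run does not show how the fit performs here. P-values measure the spread between lines. Permutation tests were exact and two-sided. Intervals cover counting error only where named Poisson. Gene lengths came from GENCODE M1, for marker sums too (chosen after seeing the data), and promoters from RefSeq. Named genes are the 10 members, the genes called and the 2 smallest p-values of each pathway list, the nearest tested gene on either side, the 3 most correlated genes and the targeted genes, of which part is printed. *Fbxw7*, *Rrm2* and the single marker genes fall outside this rule and were chosen after their values were seen. The members and lists were chosen with earlier results of these data known. Some genes of these lists count in the totals but are not reported here by name.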

Additional observations from a re-analysis of the deposited data

How the results depend on the processing

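Of all genes tested, 15 were called with the settings used. The count was 6 with a pseudocount of 0.1, 5 with no filter on low values, 4 with limma voom on the recovered reads, 33 at an adjusted p-value under 0.1, 0 with a replicate block (1085 at an unadjusted p-value under 0.05) and 0 with sg*Kmt2c* replicates 2 and 3 as 1 sample (1031). With each line left out in turn it ranged from 0 to 8, the latter without sg*Kmt2c* replicate 1, with 563 to 1477 at unadjusted p-values under 0.05. Of the pathway genes 1 was called, 2 at an adjusted p-value under 0.1, and 0 with the pseudocount of 0.1, no filter, voom, the replicate block or sg*Kmt2c* replicates 2 and 3 as 1 sample, with 0 to 1 when a line was left out. The 10 members had 0 calls under each of 18 alternatives. Their genotypes overlapped except for 2 members with sg*Kmt2c* replicates 2 and 3 as 1 sample, and for 0 to 2 when a line was left out (*Rb1* without sg*Kmt2c* replicate 2, *Rbl1* and *Cdk4* without replicate 3, *Ccnd2* and *Cdk6* without sg*Trp53* replicate 2). Fewer lines separate more easily. Without sg*Kmt2c* replicate 1, 1849 of all 11617 genes tested were lower in sg*Kmt2c* without overlap, against 1212 with all lines. The share of all genes was not taken for the settings in which members separated, so these cases are not read as differences.

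Of 180 member values under these alternatives, 167 kept their sign and 13 did not. Changes of the filter, the p-value threshold, the eBayes trend and the replicate block cannot alter a fold change, so signs were kept there by construction. *Cdk6* was 0.0060 with median-of-ratios scaling and *Ccnd3* was -0.14 with sg*Kmt2c* replicates 2 and 3 as 1 sample. With each line left out, the log2 fold change ranged from -0.19 to 0.41 for *Rbl2*, -0.25 to 1.15 for *Ccnd1*, -0.22 to 0.40 for *Ccnd3*, -0.25 to 0.023 for *Cdk4*, -0.34 to 0.076 for *Cdk6*, -1.50 to 0.033 for *Ccne1* and -2.09 to 0.42 for *Ccne2*. The cause was not tested. Deviations of same-numbered lines correlated at 0.19, 0.40 and 0.03, and those of differently numbered lines at -0.28 to 0.15. Whether the replicate numbers pair the lines was not tested. Median family shares moved with the length, an alternative chosen after seeing the data: *Rb1* 27.4% to 80.8%, *Ccnd3* 20.9% to 38.0%, *Cdk6* 16.7% to 52.5% and *Ccne2* 63.3% to 91.5% on the listed length, and *Cdk6* to 11.2% on the longest coding transcript.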
